A study of Homo sapiens with 8 samples.

Results

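The heat shock chaperones and their DNAJ and BAG cochaperones were examined in U-87MG cells. The genes taken were those whose platform symbol names an HSPA, HSPH, HSP90, HSPB, DNAJA, DNAJB, DNAJC or BAG protein, with 1 exclusion from the HSP90 group, and whose array row carries that symbol alone. This gave 54 genes of the 11822 with a row of their own: 10 of the HSP70 and HSP110 families, 2 labelled HSP90, 4 small heat shock proteins, 3 DNAJA, 9 DNAJB, 21 DNAJC and 5 BAG genes. The selection by symbol also brought in DNAJB8-AS1, an antisense RNA gene, HSP90AB3P, a pseudogene, and HSPB11, which RefSeq now lists as IFT25, a gene of intraflagellar transport.

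U-87MG is an established human glioblastoma line, and the 8 arrays came from cells labelled with its name and no added modification, 4 from cells given indole-3-carboxaldehyde (I3CA) at 50 µM and 4 from cells given the solvent DMSO, each for 24 h. I3CA is an indole aldehyde derived from tryptophan and was tested as a ligand of the aryl hydrocarbon receptor (AHR). The solvent was kept to at most 0.2% of the medium. The labels call the 4 arrays of a group biological replicates without naming separate cultures. The SDs below therefore measure the spread between these samples, which may be technical. The SE of a difference is that of the limma fit, which draws the variance of each gene toward a value shared by all genes. Values are log2 expression values after RMA, and a difference is always I3CA minus DMSO.

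HSP70 proteins bind exposed hydrophobic stretches of unfolded chains in a cycle driven by ATP. DNAJ proteins deliver clients and start ATP hydrolysis through their J domain, while BAG proteins and HSP110 proteins release the nucleotide and with it the client. Small heat shock proteins hold unfolded chains without ATP. HSP90 acts late, on kinases and receptors, and it keeps AHR in the cytosol in a form that can bind ligand. Heat or damaged protein activates HSF1, which binds heat shock elements, runs of GAA and its complement in alternating direction, before chaperone genes. Unfolded protein in the endoplasmic reticulum (ER) activates a separate set of genes, partly through the ER stress element.

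Promoter sequence from RefSeq (GRCh38.p14) is shown for 4 genes, because these hold the elements through which a heat shock or ER stress response would be read. The stretches run 5′ to 3′ on the gene's strand, with matches to GAANNTTC or TTCNNGAA, the paired units of a heat shock element, in capitals for DNAJB1, HSP90AA1 and HSPB1. In HSPA5 the capitals mark the ER stress element, CCAAT and CCACG with a spacer of 9 bases between them. The stretch of DNAJB1 lies at chr19:14518398-14518527 (minus strand), that of HSP90AA1 at chr14:102087045-102087174 (minus strand) and that of HSPA5 at chr9:125241344-125241473 (minus strand), each covering the 130 bases before the start of transcription. The stretch of HSPB1 lies at chr7:76302463-76302592 (plus strand), from 210 to 81 bases before the start.
DNAJB1: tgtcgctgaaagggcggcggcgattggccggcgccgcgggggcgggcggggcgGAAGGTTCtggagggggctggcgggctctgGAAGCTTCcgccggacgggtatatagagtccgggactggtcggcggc
HSP90AA1: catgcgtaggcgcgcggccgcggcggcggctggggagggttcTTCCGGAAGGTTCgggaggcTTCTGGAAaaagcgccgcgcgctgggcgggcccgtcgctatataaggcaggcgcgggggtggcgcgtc
HSPB1: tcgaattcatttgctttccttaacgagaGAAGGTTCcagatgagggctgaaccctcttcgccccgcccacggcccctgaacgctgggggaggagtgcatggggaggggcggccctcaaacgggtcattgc
HSPA5: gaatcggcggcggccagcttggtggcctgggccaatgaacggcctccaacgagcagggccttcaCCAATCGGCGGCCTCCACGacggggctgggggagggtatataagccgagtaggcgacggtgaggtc
DNAJB1 has 2 separate matches to GAANNTTC. HSP90AA1 has 1 such match that shares its GAA with a TTCNNGAA match and a further TTCNNGAA match nearer the start, while HSPB1 has a single one.

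Array medians ran from 8.80 to 8.83 on the log2 scale, and the first principal component, with 24.8% of the variance, set apart the arrays numbered 4 of both groups rather than the groups. Of 5 measured glial and glioma markers, VIM stood at 13.08 ± 0.04 (SD, n = 4) and CD44 at 11.15 ± 0.10 in DMSO. GFAP stood at 8.28 ± 0.39, NES at 8.08 ± 0.15 and ALDH1L1 at 7.74 ± 0.48, not far from the lowest mean of any row in the table, 7.22. Detection was not recorded for any row, and a low value cannot be told apart from background. The 8 measured markers of neurons, macrophages, endothelium and epithelium had DMSO means from 7.70 to 9.30. In the whole comparison 1 of 11822 genes, 0.00846%, passed a limma adjusted p under 0.05.

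Chaperone expression was not detectably different between I3CA and DMSO. The arrays read RNA from whole cultures, where fewer cells expressing a gene and less of its RNA per cell cannot be told apart. Of the 54 genes, 0 passed the adjusted threshold in limma and 0 had an unadjusted p under 0.05, where 3.16% of all genes did and 1.42% did so with a lower mean. With the replicate number as a block 1 of the 54 (DNAJC17) had an unadjusted p under 0.05, against 4.71% of all genes. Means were higher with I3CA in 22 genes, 40.7%, and lower in 32, where 46.6% of all 11822 genes were higher. The same share of all genes stands beside the counts by family below. The median difference was -0.02 on the log2 scale, against -0.01 over all genes. Every one of the 54 had a limma adjusted p of 1.00 after rounding. The arrays allowed a bound on differences in array values, which is not a bound on changes in RNA. Fold changes after RMA tend to understate changes in RNA, and low rows cannot be told apart from background. Of the 54 genes, 35 remained when rows under the median brightness were left out. The 95% interval of the difference, not adjusted for the number of genes, lay inside a 1.5-fold change in either direction for 53 of the 54 genes, 98.1%, against 93.5% of all genes. DNAJC17 was the exception. The spread within groups had a median SD of 0.14 over the chaperone genes and 0.15 over all genes.

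**Figure D1:**
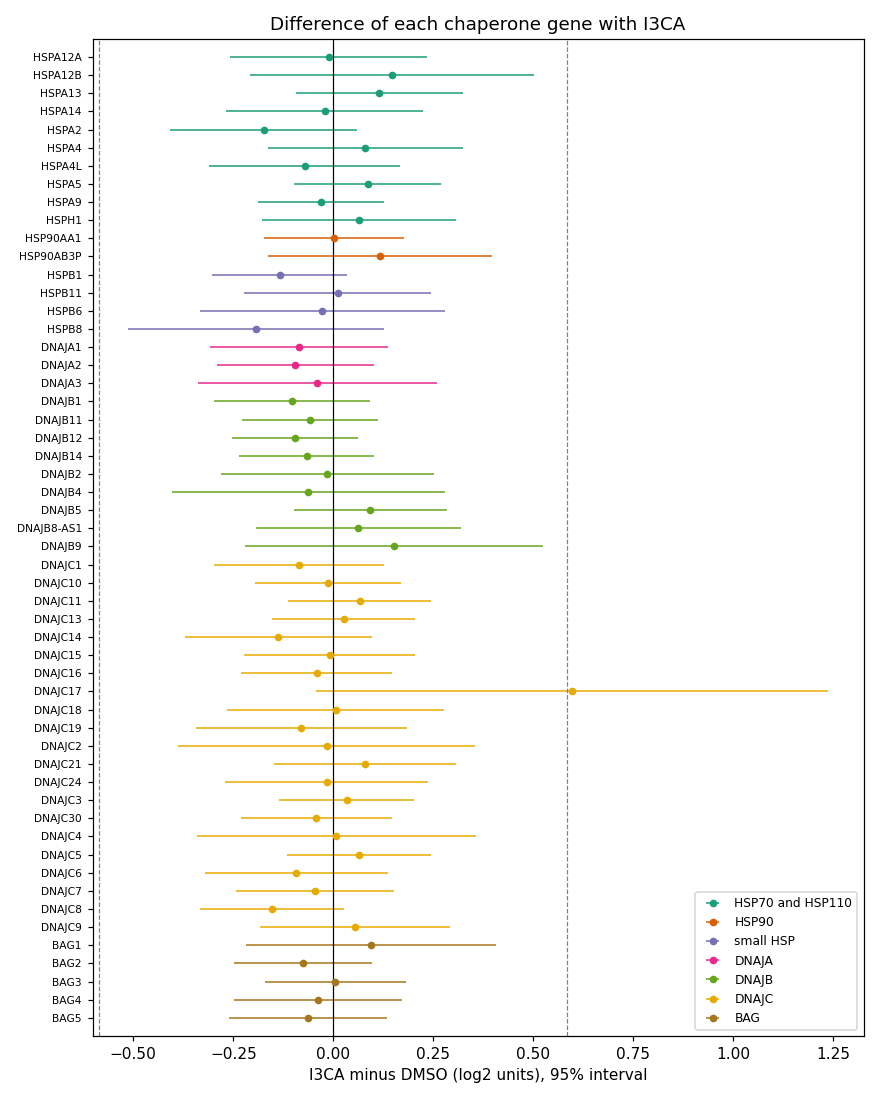
Difference of each of the 54 chaperone and cochaperone genes, I3CA minus DMSO in log2 units (x axis), with the 95% interval of the limma fit (n = 4 arrays per group), coloured by family; dashed lines mark a 1.5-fold change. All 54 intervals include 0, and that of DNAJC17 alone crosses a dashed line.

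Among the HSP70 and HSP110 genes, 5 means were higher and 5 lower with I3CA, with a median difference of 0.03. HSPA5, the ER lumen HSP70 also called BiP, had DMSO values of 11.78, 11.89, 11.95 and 11.73 in replicates 1 to 4 and I3CA values of 11.99, 11.99, 11.91 and 11.81. The groups overlapped, with array 4 the lowest in each, and the difference was 0.09 ± 0.08 (SE; interval -0.10 to 0.27). HSPA9, or mortalin, which pulls proteins into the mitochondrial matrix, had DMSO values of 12.46, 12.47, 12.54 and 12.42 and I3CA values of 12.42, 12.46, 12.48 and 12.40. These 8 arrays lay within a narrow band, and the difference was -0.03 ± 0.07 (interval -0.19 to 0.13).

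The HSP110 proteins serve HSP70 as nucleotide exchange factors and also hold unfolded chains. HSPH1, a heat shock-inducible HSP110, had DMSO values of 10.88, 10.91, 10.61 and 10.75 and I3CA values of 10.83, 11.03, 10.60 and 10.94. Replicate 3 was the lowest of both groups, and the difference was 0.06 ± 0.11. HSPA4, a constitutive HSP110, differed by 0.08 ± 0.11, and its relative HSPA4L by -0.07 ± 0.11. The member of these families with the largest negative difference was HSPA2, an HSP70 abundant in testis, at -0.17 ± 0.10, and the largest positive one was HSPA12B, a distant HSP70 relative of endothelium, at 0.15 ± 0.16. HSPA12B had DMSO values of 8.68, 7.81, 8.42 and 8.20, a spread that enclosed all 4 I3CA values of 8.41, 8.58, 8.31 and 8.40, and without DMSO replicate 2 its difference was -0.0084. HSPA13 differed by 0.11 ± 0.09, HSPA12A by -0.01 ± 0.11 and HSPA14, a ribosome-associated HSP70, by -0.02 ± 0.11.

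HSP90AA1, the inducible cytosolic HSP90, showed the smallest difference of the 54 genes. Its DMSO values were 12.53, 12.72, 12.63 and 12.61 and its I3CA values 12.60, 12.73, 12.63 and 12.54, so that replicate 2 was the highest in each group. The difference was 0.00 ± 0.08 with an interval of -0.17 to 0.18, which corresponds to 0.887-fold to 1.13-fold. The pseudogene row HSP90AB3P differed by 0.12 ± 0.13. A pseudogene resembles its parent gene, and the row cannot be assigned to one or the other.

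Small heat shock proteins had lower means with I3CA in 3 of 4 genes, none past the threshold. HSPB1 (HSP27), a target of HSF1 that binds unfolded chains and actin filaments, had DMSO values of 11.95, 12.09, 12.05 and 12.12 and I3CA values of 11.95, 11.98, 11.89 and 11.84. Only DMSO replicate 1 reached down into the range of the I3CA arrays. The difference was -0.13 ± 0.08 (interval -0.30 to 0.03, limma adjusted p = 1.00). HSPB8, the partner of BAG3 in chaperone-assisted autophagy, had the largest negative difference of all 54 genes, -0.19 ± 0.14, with DMSO values of 9.74, 9.48, 9.65 and 9.89 and I3CA values of 9.55, 9.07, 9.67 and 9.69. Its I3CA group was spread by replicate 2, the other 3 arrays lying inside the DMSO range, and without replicate 2 the difference was -0.051. HSPB6, a small heat shock protein of muscle, differed by -0.03 ± 0.14 and HSPB11 by 0.01 ± 0.11.

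The 3 DNAJA genes, class I J-domain proteins, all had lower means with I3CA. DNAJA1 (HDJ2), a general HSP70 partner induced by HSF1, had DMSO values of 11.26, 11.21, 11.23 and 11.13 and I3CA values of 11.22, 11.34, 11.00 and 10.93. The I3CA arrays were wider apart than the DMSO arrays, with replicates 3 and 4 below and replicate 2 above all of the latter. The difference was -0.09 ± 0.10. DNAJA2, its close cytosolic relative, differed by -0.09 ± 0.09, and DNAJA3, or TID1, the mitochondrial DNAJA protein, by -0.04 ± 0.13.

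Of the 9 DNAJB rows 3 had higher means and 6 lower. DNAJB1 (HSP40), a common marker gene of the heat shock response, had DMSO values of 10.69, 10.67, 10.46 and 10.65 and I3CA values of 10.62, 10.58, 10.48 and 10.38. DMSO replicate 3 stood apart below the other 3 DMSO arrays and inside the I3CA range. The difference was -0.10 ± 0.09 (interval -0.30 to 0.09), so the upper bound lay at 1.07-fold. DNAJB9 (ERdj4), an ER J-domain protein induced by unfolded protein in the ER, had DMSO values of 8.23, 8.15, 7.93 and 7.42 and I3CA values of 8.27, 8.11, 8.11 and 7.84. Array 4 was the lowest of each group, and the difference of 0.15 ± 0.17 became -0.02 without DMSO replicate 4. DNAJB11 (ERdj3), a BiP cochaperone secreted under stress, differed by -0.06 ± 0.08, DNAJB2, which guides clients to the proteasome in neurons, by -0.01 ± 0.12, DNAJB4 by -0.06 ± 0.15 and DNAJB5 by 0.09 ± 0.09. The ER membrane proteins DNAJB12 and DNAJB14 differed by -0.10 ± 0.07 and -0.07 ± 0.08. The antisense row DNAJB8-AS1 differed by 0.06 ± 0.12.

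The DNAJC genes share only the J domain and serve many separate tasks. Of the 21, 9 had higher means with I3CA and 12 lower, with a median difference of -0.01. DNAJC8, a J-domain protein of the spliceosome, was the 1 gene of the 54 whose groups did not overlap, lower with I3CA, against 1.92% of all genes in either direction and 0.956% lower. Its DMSO values were 10.48, 10.53, 10.49 and 10.54 and its I3CA values 10.19, 10.41, 10.47 and 10.36. The gap between the lowest DMSO array and the highest I3CA array was narrow, the difference was -0.15 ± 0.08 (interval -0.33 to 0.03), and it did not pass (limma adjusted p = 1.00). DNAJC17, also linked to splicing, had the largest difference of all 54 genes, 0.60 ± 0.29 (interval -0.04 to 1.24). Its DMSO values were 8.25, 6.70, 8.02 and 7.75 and its I3CA values 8.70, 8.14, 8.06 and 8.22. DMSO replicate 2 was the lowest array by a wide margin, and without it the difference was 0.27. That array lay below 7.22, the lowest mean of any row in the table. The DMSO mean of DNAJC17 was 7.68, which cannot be told apart from background. Its row was among those left out when rows under the median brightness were dropped.

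The other DNAJC genes are given by task. DNAJC3 (p58IPK), a BiP cochaperone of the ER lumen, had DMSO values of 9.80, 9.92, 9.83 and 9.73 and I3CA values of 9.85, 9.90, 9.89 and 9.78 and differed by 0.03 ± 0.08. DNAJC10 (ERdj5), an ER disulfide reductase, differed by -0.01 ± 0.08, and DNAJC1, an ER membrane protein, by -0.09 ± 0.10. At the mitochondrion, DNAJC19 and DNAJC15, homologues of the import motor's J protein, differed by -0.08 ± 0.12 and -0.01 ± 0.10, DNAJC11, of the cristae contact sites, by 0.07 ± 0.08, and DNAJC30 by -0.04 ± 0.08. For vesicle traffic, DNAJC5 (cysteine string protein) differed by 0.06 ± 0.08, the clathrin uncoating factor DNAJC6 (auxilin) by -0.09 ± 0.10 and the endosomal DNAJC13 by 0.03 ± 0.08. DNAJC7, which links HSP70 to HSP90, differed by -0.05 ± 0.09, the ribosome-bound DNAJC2 by -0.02 ± 0.17, the ribosome biogenesis factor DNAJC21 by 0.08 ± 0.10, DNAJC24 of diphthamide synthesis by -0.02 ± 0.11 and the histone chaperone DNAJC9 by 0.05 ± 0.11. DNAJC4, DNAJC14, DNAJC16 and DNAJC18 had differences between -0.14 and 0.01. None of these groups of tasks held a gene past the threshold.

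The BAG genes encode nucleotide exchange factors that carry a BAG domain. BAG3, which is induced by HSF1 and routes clients to autophagy, had DMSO values of 9.62, 9.79, 9.67 and 9.78 and I3CA values of 9.68, 9.74, 9.63 and 9.82. The 2 groups covered almost the same range, and the difference was 0.01 ± 0.08 (interval -0.17 to 0.18). BAG1, which links HSP70 to the proteasome, had DMSO values of 8.26, 7.91, 7.84 and 8.07 and I3CA values of 8.18, 7.84, 7.97 and 8.46, a difference of 0.09 ± 0.14 that became -0.02 without I3CA replicate 4. BAG2, an inhibitor of the ubiquitin ligase CHIP, differed by -0.08 ± 0.08, BAG4 by -0.04 ± 0.09 and BAG5 by -0.06 ± 0.09.

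**Figure D2:**
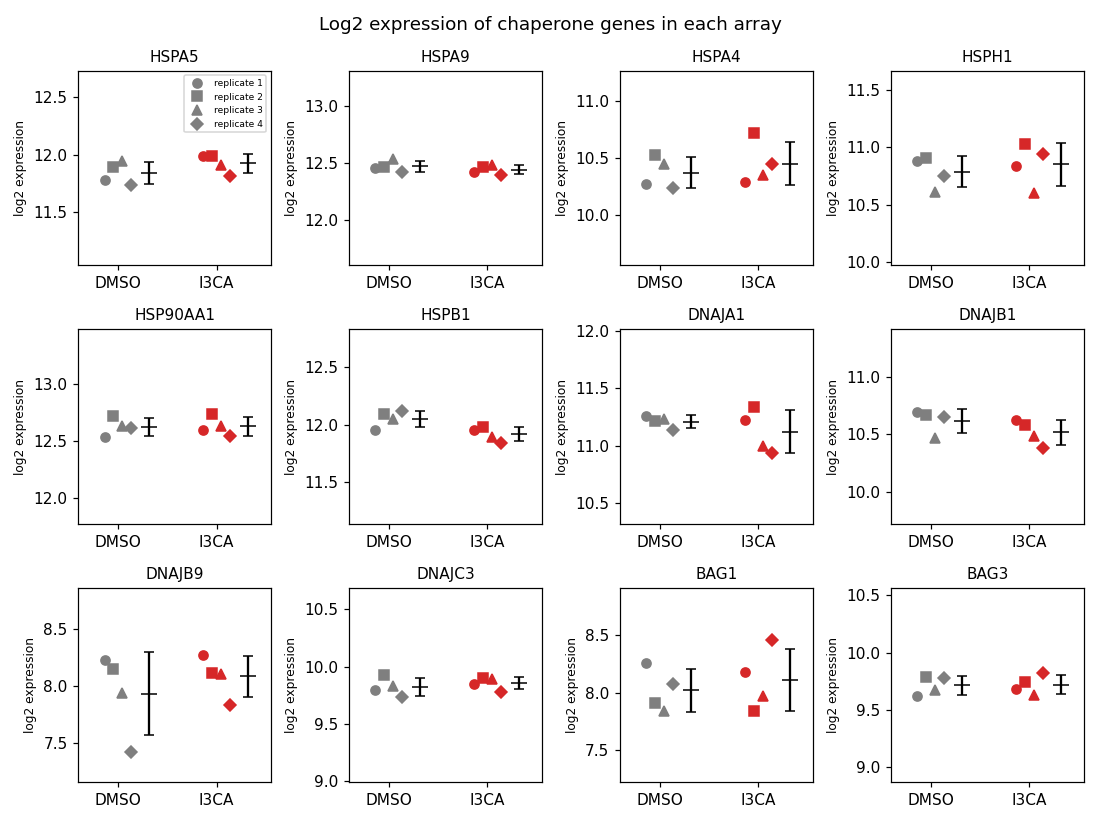
Log2 expression (y axis, the same span in every panel) of 12 chaperone genes in each array; grey, DMSO; red, I3CA; the symbol gives the replicate number and the bar the mean ± SD (n = 4). The groups overlap in all 12 panels, and array 4 holds the lowest value of each group for HSPA5, HSPA9, DNAJA1, DNAJB9 and DNAJC3.

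Several major chaperones share their array row with another annotated gene and stand outside the 54. Others, among them HSPA6, DNAJA4 and HSPB7, have no row under their symbol and were not read. The shared rows are given here because the family is less complete without them, from a limma fit over all 13458 rows, of which 0.00743% passed. The row of HSPA8, the constitutive cytosolic HSP70, shared with snoRNA genes of its introns, differed by -0.01 ± 0.08 (SE). The stress-inducible HSP70 genes HSPA1A and HSPA1B are near-identical and share 2 rows, which differed by -0.06 ± 0.11 and -0.05 ± 0.13. The first of these rows had DMSO values of 10.53, 10.36, 10.12 and 10.29 and I3CA values of 10.38, 10.44, 10.10 and 10.13, with replicate 3 lowest in each group. HSP90B1 (GRP94), the ER HSP90, differed by -0.04 ± 0.08 and -0.01 ± 0.07 in the 2 rows it shares with a microRNA gene alone. The mitochondrial chaperonin HSPD1 (HSP60), whose row is shared with a pseudogene, differed by -0.08 ± 0.09 and its lid HSPE1 (HSP10) by -0.01 ± 0.10. BAG6, which holds tail-anchored proteins before membrane insertion, differed by 0.01 ± 0.07, and DNAJB6, an inhibitor of polyglutamine aggregation, by -0.13 ± 0.09. The row of HSPB2, with neighbouring transcripts, differed by 0.37 ± 0.22, its DMSO values of 8.71, 8.45, 7.90 and 8.86 overlapping its I3CA values of 8.78, 8.40, 9.06 and 9.16. The members DNAJC11 and DNAJC5 also have a shared row each, at -0.05 ± 0.15 and -0.11 ± 0.10, against positive differences in their own rows. Each of these rows had a limma adjusted p of 1.00.

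Heat shock elements were then counted in the 250 bases before the start of transcription, with GAANNTTC or TTCNNGAA as the motif. Each of these reads the same on both strands, and the 2 can overlap by a shared GAA or TTC. RefSeq windows were held for 47 of the 54 genes. A match was found in 10 of the 47 genes, 21.3%, against 12.0% of the 8903 tested genes with a window. The 10 were BAG2, DNAJA1, DNAJB1, DNAJB4, DNAJC15, HSP90AA1, HSPA4L, HSPB1, HSPB6 and HSPB8. Means were lower with I3CA in 9 of these 10, with HSP90AA1 at 0.00, and their differences ran from -0.19 to 0.00 with a median of -0.07. Among the 37 chaperone genes without a match 19 means were lower, with a median of -0.01. Among all 1065 tested genes with a match 52.0% were lower, with a median of -0.01, against 53.7% of tested genes without one. Without I3CA replicate 4 the count was 7 of 10 against 22 of 37, and without both arrays numbered 4 it was 8 of 10 against 25 of 37. This grouping was made after the differences were known, carries no test, and a match is not a shown binding site. The 6 members used as HSF1 markers here, likewise grouped afterwards, HSPB1, HSPH1, HSP90AA1, DNAJA1, DNAJB1 and BAG3, had a median difference of -0.04, with 3 means higher and 3 lower.

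The ER stress element, searched on both strands, was found before 1 of the 47 genes, HSPA5, and before 0.124% of tested genes. The core motif bound by AHR, GCGTG on either strand, lay in the window of 25 of 47 genes, 53.2%, and of 52.9% of tested genes.

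The 12 members that work in or at the ER had their lowest values mostly in the arrays numbered 4 of both groups. They are HSPA5, HSPA13, DNAJB9, DNAJB11, DNAJB12, DNAJB14, DNAJC1, DNAJC3, DNAJC10, DNAJC14, DNAJC16 and DNAJC18, grouped after their values were known. In DMSO, array 4 was the lowest of the 4 for 10 of the 12, and in I3CA for 9 of the 12. For all genes array 4 was the lowest in 29.4% of cases in DMSO and in 26.7% in I3CA. The other 42 chaperone genes had it lowest in 18 cases in DMSO and 13 in I3CA.

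The size of this shift was largest in DNAJB9, whose DMSO mean of 7.93 cannot be told apart from background. Its array 4 minus the mean of the other 3 arrays was -0.68 in DMSO and -0.33 in I3CA. For HSPA5 these values were -0.14 and -0.15, for DNAJC3 -0.12 and -0.10 and for HSPA13, an HSP70 relative of the ER, -0.14 and -0.24. DNAJB12 and DNAJC14 went the other way in DMSO, at 0.01 and 0.05, and DNAJC16 and DNAJC18 in I3CA, at 0.16 and 0.26. The mean of the 12 genes was 9.46, 9.49, 9.47 and 9.30 in DMSO replicates 1 to 4 and 9.46, 9.41, 9.44 and 9.36 in I3CA. Between treatments this mean differed by -0.01. Its SD over arrays was 0.09 in DMSO, where replicate 4 was low, and 0.04 in I3CA. The median difference of the 12 genes was -0.03, and without both arrays numbered 4 it was -0.07, with 4 of 12 means higher in place of 5.

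**Figure D3:**
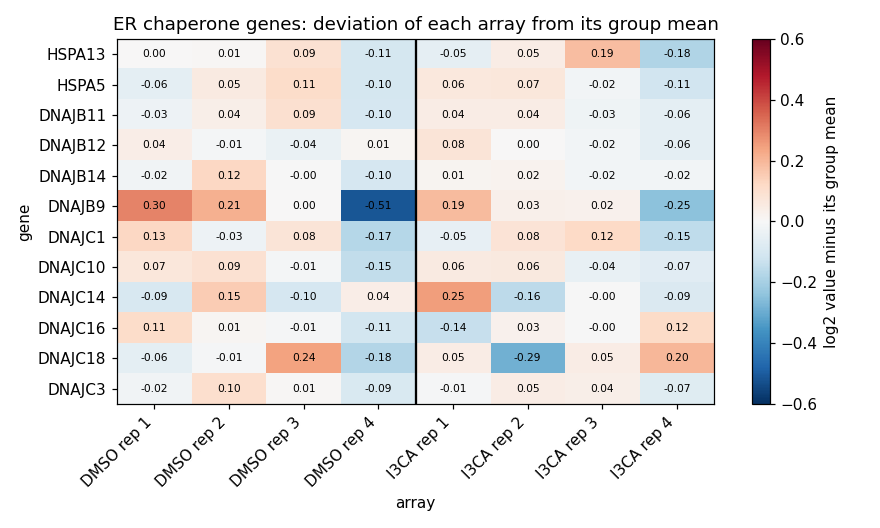
Log2 value minus its group mean for the 12 ER chaperone genes (rows) in the 8 arrays (columns), DMSO left of the line and I3CA right of it; red is above and blue below the group mean. Array 4 is below its group mean for 10 of the 12 genes in each group, most of all for DNAJB9.

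The list of ER folding genes outside the chaperone families held 24 genes, among them the lectins CALR and CANX, disulfide isomerases and the translocation factor SEC63, and 20 were measured. Array 4 was the lowest for 11 of the 20 in DMSO and for 9 of the 20 in I3CA, with list means of 10.19, 10.17, 10.14 and 10.07 over DMSO replicates 1 to 4. In DMSO, lists outside the ER had array 4 lowest too, for 4 of 8 TRiC genes and 5 of 11 mitochondrial folding genes. Over all genes the share was 29.4% in DMSO and 26.7% in I3CA. In I3CA the counts were 3 of 8 TRiC genes and 3 of 11 mitochondrial folding genes (27.3%), the latter near the share of all genes. No difference between lists was tested. Whether the way the arrays numbered 4 were grown, extracted or hybridised moved these genes was not tested, as the labels give nothing on it.

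The 6 mitochondrial members, HSPA9, DNAJA3, DNAJC11, DNAJC15, DNAJC19 and DNAJC30, also grouped after their values were known, had 1 higher and 5 lower means with I3CA, and a median difference of -0.04. Their mean was 9.61 in DMSO replicate 4, below the 9.70 to 9.71 of the other DMSO arrays, while the I3CA arrays ran from 9.61 in replicate 1 to 9.74 in replicate 2.

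The wider folding network was read from 8 lists of 120 genes, of which 96 were measured. In limma 0 of the 96 passed the adjusted threshold and 1 had an unadjusted p under 0.05, against 3.16% of all genes. That gene was FKBP5, a cochaperone of HSP90 in steroid receptor complexes, with a difference of -0.39 ± 0.08 (limma adjusted p = 0.79). Its I3CA arrays, from 8.41 to 8.59, all lay below its DMSO arrays, from 8.80 to 8.94. STUB1, named after its values were seen, which encodes the ubiquitin ligase CHIP, was the other gene of the 96 whose groups did not overlap, with a difference of 0.07 ± 0.07. Over all genes the groups did not overlap in 1.92%, so 2 of 96 is near the background.

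By list, the HSP90 cochaperones had 8 of 21 means higher with I3CA and a median difference of -0.04. CDC37, which brings kinases to HSP90, differed by 0.14 ± 0.09, and NUDCD2, a stabiliser of HSP90 clients, by 0.14 ± 0.08. In the HSF1 family 3 of 9 genes were measured. HSF1 itself differed by 0.13 ± 0.11, HSF2 by -0.19 ± 0.10 and HSBP1, which binds the HSF1 trimer, by -0.19 ± 0.09.

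Exchange factors and other partners of HSP70 had 6 of 9 means higher, with HYOU1, the ER HSP110, at 0.14 ± 0.10, HSPBAP1 at -0.15 ± 0.10 and SIL1, the BiP exchange factor, at -0.10 ± 0.11. The cytosolic chaperonin TRiC and its cofactors, which fold actin and tubulin, had 2 of 8 higher, with CCT8 at -0.10 ± 0.08, CCT3 at -0.09 ± 0.08 and TXNDC9, a cofactor, at -0.19 ± 0.10. The list of prefoldin, which hands chains to TRiC, and related genes had 3 of 9 higher. There URI1 differed by 0.11 ± 0.10, PFDN1 by 0.09 ± 0.09 and PFDN6 by -0.07 ± 0.08. ER folding genes had 10 of 20 higher and a median of 0.00, with the oxidase ERO1L at -0.16 ± 0.11 and MANF at 0.11 ± 0.10. Mitochondrial folding genes had 5 of 11 higher, with the protease subunit SPG7 at 0.17 ± 0.08, the protease LONP1 at 0.18 ± 0.10 and CLPX at -0.16 ± 0.10. Protein quality control genes had 11 of 15 higher and a median of 0.02. Among them SQSTM1, the autophagy receptor, stood at -0.10 ± 0.08, TOR1A at 0.11 ± 0.10 and HDAC6 at 0.11 ± 0.10.

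**Figure D4:**
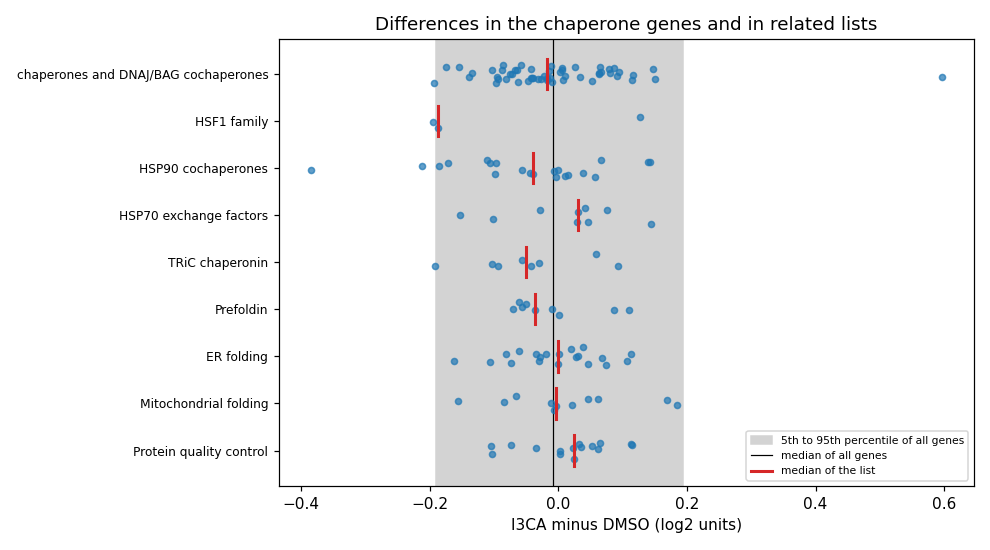
Difference of each gene, I3CA minus DMSO in log2 units (x axis), for the 54 chaperone genes and 8 related lists; red bars are list medians, the grey band spans the 5th to 95th percentile of all 11822 genes, from -0.19 to 0.19. Most genes lie in the band, with DNAJC17 to its right and FKBP5 farthest to its left; AARSD1, HSF2, HSPB8 and TXNDC9 lie just left of it.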

How the data were processed

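Gene expression was measured on whole-transcript arrays with biotin-labelled cDNA in 8 samples of U-87MG cells, 4 per group. The authors deposited log2 expression values, 1 per probe set and array, made with oligo and RMA per the submitters' processing notes, without versions. RMA corrects background, quantile-normalizes and summarises probes on the log2 scale, and fold changes from it tend to understate changes in RNA. Scanner files, scan dates and a detection measure were not used here, and a genome build is not given in the sources. The number of arrays limits the precision.

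Symbols were taken from the annotation GEO holds for the platform, an old one without identifiers. Of 13486 rows, 11850 carried 1 symbol, 657 several and 979 none. The row with the highest mean stood for a gene, which dropped 28 rows. All 54 members were taken from the 11822 genes left, and 53 symbols are current in RefSeq. No filter on low values was applied here, and whether the deposited rows had been reduced earlier was not examined. No row carried the symbol HSPA6, DNAJA4 or HSPB7, so the families are not complete.

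I3CA and DMSO were compared with limma 3.58.1 in R 4.3.3 (lmFit, eBayes, two-sided, all 8 arrays, no covariate), with Benjamini-Hochberg adjustment over all 11822 genes and a threshold of 0.05. The SE of a difference and its 95% interval come from that fit, with variances moderated over all genes. The fit was checked on simulated data with independent noise and no array effect. That check does not cover the shift of the arrays numbered 4. Members and lists were chosen with earlier results of these data known. Genes were named by rule: a core set of 18 chaperones (12 of them members), members with non-overlapping groups, the largest differences per family, members with 1 array apart and up to 3 leading genes per list. Other members were named to account for every gene.

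Deviations from the group means of same-numbered arrays correlated across all genes at 0.04, 0.07, 0.05 and 0.32 for replicates 1 to 4. Across the 54 members these correlations were 0.43, 0.28, 0.09 and 0.60. The replicate number is not stated to be a shared batch, so no pairing was used in the main fit. A fit with the replicate number as a block was run as an alternative. Motifs were searched in RefSeq promoter windows of GRCh38.p14.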

Additional observations from a re-analysis of the deposited data

Results flagged for a closer look

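In 7 of 130 groups of 4 arrays, over the 54 genes and their means per array, a single array stood well apart, above or below its group, and chance gives about 6.5 (1 in 20). DNAJB1 stood at 10.46 in DMSO replicate 3, with the other DMSO arrays at 10.65 to 10.69. DNAJC15 stood at 10.50 in DMSO replicate 2, against 10.15 to 10.17. DNAJC30 stood at 7.95 in I3CA replicate 1, against 8.09 to 8.11, and BAG5 at 9.50 in I3CA replicate 3, against 9.23 to 9.26. DMSO replicate 4 was the low array for the mean of all 54 members, 9.41 against 9.47 to 9.48, for the mean of the 12 ER members, 9.30 against 9.46 to 9.49, and for that of the 6 mitochondrial members, 9.61 against 9.70 to 9.71. These last 3 share genes and are not separate observations.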

How the results depend on the processing

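In every alternative run, 0 of the members fitted passed the adjusted threshold: 54 were fitted in each, except 35 with rows under the median brightness left out. At an unadjusted p under 0.05 the count was 0, became 1 with the replicate block (DNAJC17), where 4.71% of all genes passed, and 1 with a trended robust eBayes (HSPB1, against 3.07% of all genes), and ran from 0 to 1 when single arrays were left out. DNAJC17 passed it without DMSO replicate 1 or 3, where 3.56% and 2.77% of all genes did, and DNAJC14 without I3CA replicate 1, where 3.30% did. Higher means numbered 19 to 25 without single arrays, and the median difference ran from -0.04 to -0.01. In the network lists the unadjusted count of 1 of 96 became 2 with the replicate block and 2 without both arrays numbered 4. Of all genes 4.71% and 3.17% did so in these settings. It was 0 with rows under the median brightness left out, where fewer list genes were fitted and 2.90% of all genes did so. Without single arrays it ran from 1 to 4. The count of 4 came without DMSO replicate 1 and without I3CA replicate 3, where 3.56% and 4.00% of all genes did so.

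Of 393 alternative values for 25 named members, 21 in 9 members changed sign, and 0 of these passed. BAG1 ran from -0.021 to 0.19 without single arrays and was -0.0029 with both arrays numbered 4 left out. BAG3 ran from -0.029 to 0.035 without single arrays and was -0.0071 with both arrays numbered 4 left out. DNAJA3 ran from -0.14 to 0.10 without single arrays. DNAJB9 ran from -0.020 to 0.25 without single arrays. DNAJC15 ran from -0.041 to 0.077 without single arrays. HSP90AA1 ran from -0.033 to 0.035 without single arrays. HSPA12B ran from -0.0084 to 0.28 without single arrays. HSPA4 ran from -0.0083 to 0.13 without single arrays. HSPB11 ran from -0.039 to 0.076 without single arrays. The cause was not tested. Without a measure of signal over background, low rows could not be told from background, and 4 arrays per group limit the precision.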
